A study of Homo sapiens with 2 samples.

Results

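The genes described are the ATP-binding cassette (ABC) transporters of A427, an established human non-small cell lung carcinoma line. They were taken by symbol, as every entry of the gene tables that starts with ABCA to ABCG and a digit. Of 51 such symbols, 5 pseudogenes and 1 antisense gene were left out, which gave 45 genes among 23686 in all. By known role, 10 of the 45 export drugs, 18 move lipids, sterols or bile salts, and 17 do other work in organelles, in channels or on ribosomes. Messenger RNA was sequenced in 2 libraries, 1 of floating, sphere-forming A427 cells and 1 of adherent A427 cells, both grown in RPMI medium with serum. The labels name no drug treatment. The series title calls the line CTNNB1-mutated, while its sample labels give the genotype as WT without naming a gene. The libraries held 27148842 reads in floating cells and 26384670 reads in adherent cells. With 1 library per growth form there is no replicate, no SD and no p-value. The 95% intervals below are exact binomial intervals for counting error alone, so no difference can be set against the spread between cultures.

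ABC transporters couple the binding and splitting of ATP to the passage of a substrate across a membrane. Drug pumps of the B, C and G subfamilies push a wide range of foreign compounds out of the cell, and ABCG2 has long been used to mark side-population cells, which extrude a DNA dye. Most A and several G members move phospholipids and cholesterol, and ABCA3 loads surfactant lipid into the lamellar bodies of alveolar cells in the lung. The D members sit in peroxisomes and lysosomes, several B members in mitochondria, and ABCE1 and the ABCF proteins have no membrane part and work with ribosomes or in translation.

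The labelled cell type was checked against marker genes. EPCAM and the keratins KRT8 and KRT18 were abundant, with 582, 581 and 613 TPM (transcripts per 1000000) in floating cells and 615, 327 and 342 TPM in adherent cells. Of the other epithelial markers, CDH1 had 13.9 TPM in floating and 18.9 TPM in adherent cells, KRT19 had 1.3 TPM in floating and 0.5 TPM in adherent cells, and KRT7 had 0.15 TPM in floating and 0.21 TPM in adherent cells. The mesenchymal marker VIM was the highest of all markers, at 4850 TPM in floating and 5264 TPM in adherent cells, while CDH2 and FN1 had 1.88 and 4.85 TPM in floating and 2.81 and 5.7 TPM in adherent cells. The lung markers SFTPC and SCGB1A1 had 0 reads in both libraries, SFTPB had 1 read in floating cells and 0 in adherent cells, NAPSA had 21 reads in floating and 29 in adherent cells, and NKX2-1 had 13 reads in floating and 3 in adherent cells, so the defining lung genes were absent or at very low levels. Summed over 3 markers each, endothelial genes reached 0.42 TPM in floating and 0.13 TPM in adherent cells, and fibroblast genes 0.51 TPM in floating and 0.64 TPM in adherent cells. CD3E was at 0 reads in both libraries. The summed leukocyte markers stood at 33.4 TPM in floating and 19.7 TPM in adherent cells, most of it from CD68, a lysosomal protein that is not confined to leukocytes, while PTPRC had 1.95 TPM in floating and 2.84 TPM in adherent cells. The part of these differences in the results below was not tested.

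A gene was compared if it reached 1 CPM (scaled counts per 1000000, about 27 reads in floating and 26 reads in adherent cells) in at least one library. This held for 25 of the 45 ABC genes and for 13131 genes in all. Of the drug pumps 5 of 10 were compared, of the lipid transporters 6 of 18, and of the other members 14 of 17. The 20 genes below that level had at most 11 reads in floating and at most 9 reads in adherent cells. ABCB5, ABCA1, ABCA9, ABCG5 and ABCG8 had 0 reads throughout, and 0 reads allow a level of up to 0.11 CPM in floating and 0.114 CPM in adherent cells. ABCA1 exports cholesterol to apolipoprotein A-I, and ABCG5 and ABCG8 pair to export plant and animal sterols. ABCB1, the gene for P-glycoprotein, had 2 reads in floating and 6 reads in adherent cells, and its interval included no difference. ABCC2, an organic anion pump of apical membranes, had 11 reads in floating and 7 in adherent cells, again with an interval that included no difference. ABCC3 and the retinal transporter ABCA4 each had 3 reads in floating and 0 in adherent cells, which is at the limit of detection, so no fold is given. The other 11 genes below 1 CPM were ABCA6, ABCA8, ABCA10, ABCA12, ABCA13, ABCB4, ABCB11, ABCC8, ABCC9, ABCC11 and ABCC12, and all their intervals included no difference.

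**Figure D1:**
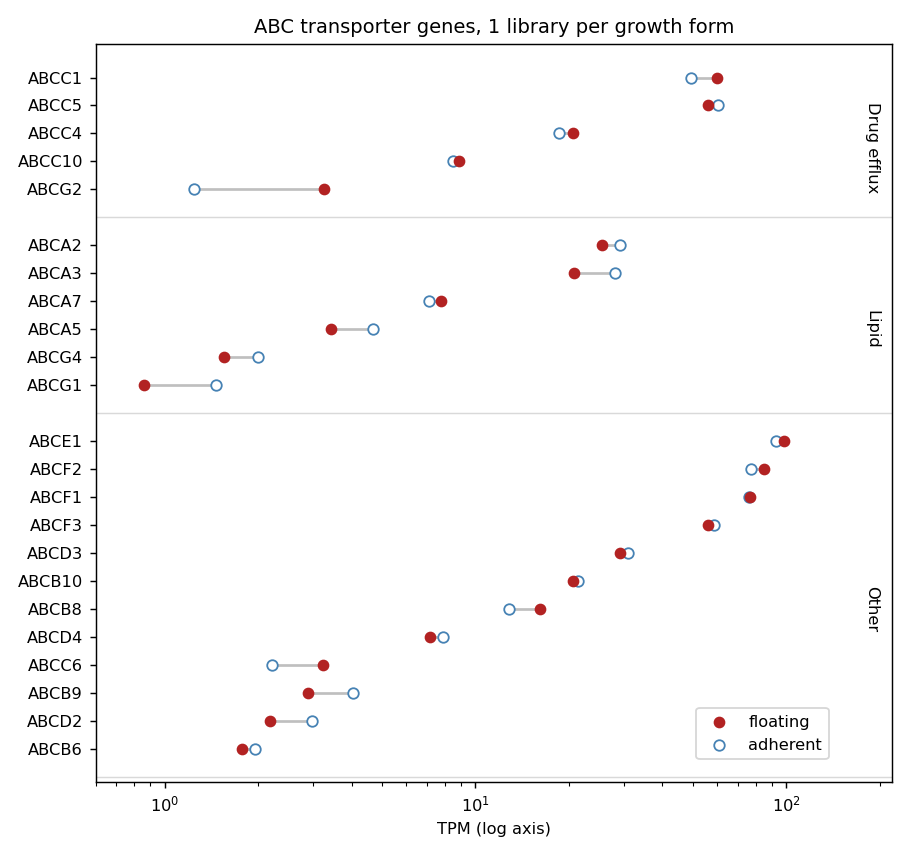
TPM on a log axis for 23 of the 25 ABC genes of at least 1 CPM, by role, with filled points for floating and open points for adherent cells, 1 library each. Most pairs of points nearly touch, and ABCG2, with 3.25 TPM in floating and 1.24 TPM in adherent cells, is the widest pair among the drug pumps.

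By level, the family was led in both libraries by the members without a membrane part. ABCE1, which splits ribosomes after translation ends, had 98.4 TPM in floating and 92.7 TPM in adherent cells. ABCF2 followed with 85.2 TPM in floating and 77.4 TPM in adherent cells, and ABCF1, which binds the initiation factor that brings in the first transfer RNA, with 76.6 TPM in floating and 76.0 TPM in adherent cells. Together the 4 genes ABCE1, ABCF1, ABCF2 and ABCF3 made up 48.7% of the family's summed TPM in floating and 47.4% in adherent cells. The drug pumps made up 23.0% in floating and 21.5% in adherent cells, and the lipid transporters 9.28% in floating and 11.4% in adherent cells. The family as a whole summed to 649 TPM in floating and 642 TPM in adherent cells. In these bulk libraries, a change in the number of cells that use a gene and a change in RNA per cell cannot be told apart.

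A gene was called when the growth forms were 2-fold or more apart and the interval left out a ratio of 1. By this 2-fold rule, 2 of the 25 compared genes were higher in floating cells and 0 were lower, against 1.28% higher and 0.754% lower over all genes compared. With the interval alone, 8 of the 25 lay above and 8 below no difference, against 25.5% above and 25.6% below for all genes. The median log2 ratio of floating over adherent cells was -0.02 for the 25 genes and -0.005 for all genes. The mean over the 25 was 0.03 and the log2 ratio of the family's summed reads was 0.05 (interval 0.03 to 0.07), so median and sum differed in sign. The family's median thus lay close to that of all genes, and the medians of its roles lay on either side of it. At a log2 ratio of at least 0.32 in size, with an interval on 1 side of no difference, 4 ABC genes were higher and 5 lower in floating cells, against 9.19% higher and 9.37% lower for all genes.

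**Figure D2:**
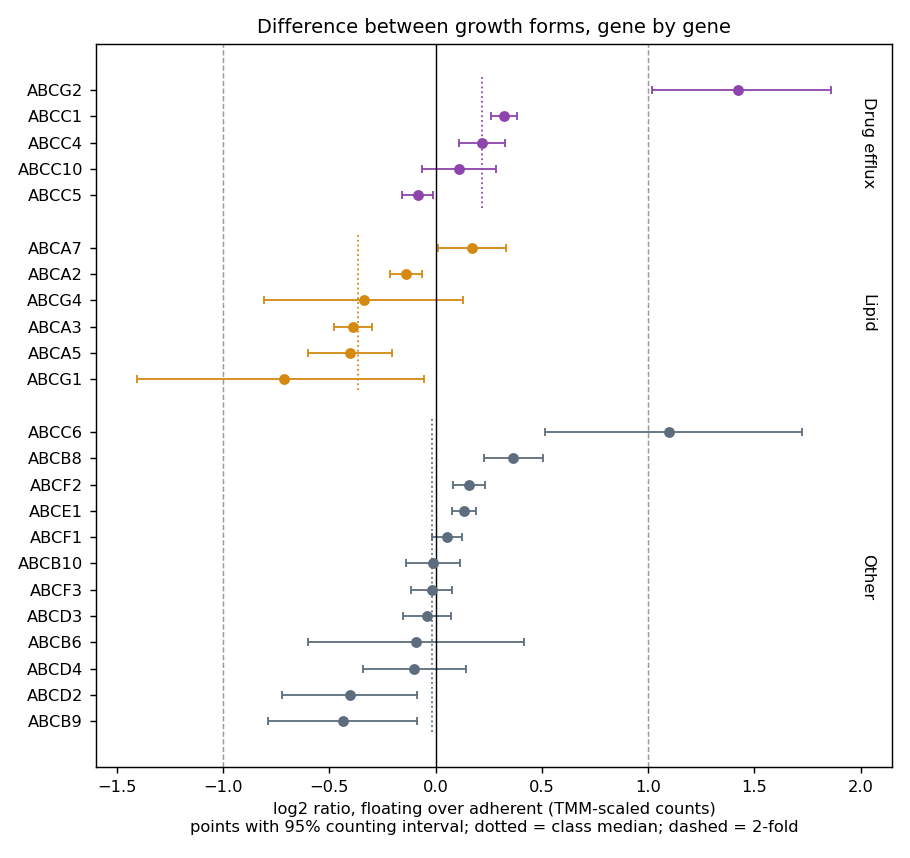
The log2 ratio of floating over adherent cells with its 95% counting interval for 23 of the 25 compared ABC genes, grouped by role, with each role's median over all its compared genes dotted. ABCG2 (1.42) and ABCC6 (1.10) lie past the dashed 2-fold line, 4 of 5 drug pumps lie above 0, and 5 of 6 lipid transporters lie below 0. Of all 13131 compared genes, 6452 had a ratio above 0.

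The drug efflux pumps were on balance higher in floating cells. Their summed reads were 10459 in floating and 8943 in adherent cells, a 1.13-fold difference after scaling (interval 1.10 to 1.16), and the median log2 ratio of the 5 compared was 0.22. Intervals lay above no difference for ABCG2, ABCC1 and ABCC4, below it for ABCC5, and on both sides for ABCC10. That is 60.0% above and 20.0% below, against 25.5% and 25.6% of all genes. The summed ratio rested largely on ABCC1: without it, the log2 ratio of the summed reads was 0.05 (interval -0.01 to 0.11).

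ABCG2 (breast cancer resistance protein), which exports urate, topotecan and dye, had 184 reads and 3.25 TPM in floating cells, against 66 reads and 1.24 TPM in adherent cells. It was 2.68-fold higher in floating cells (interval 2.02 to 3.63) and had the highest ratio of the 25 compared ABC genes. Its level remained low, at 2.18% of the summed TPM of the drug pumps in floating and 0.896% in adherent cells. By TPM it ranked 19 among the 45 ABC genes in floating cells and 25 in adherent cells.

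ABCC1 (multidrug resistance protein 1), which exports glutathione conjugates and anthracyclines, had 5113 reads and 59.9 TPM in floating cells, against 3952 reads and 49.4 TPM in adherent cells. The log2 ratio was 0.32 (interval 0.26 to 0.38), a small difference on a gene near the top of the drug pumps. ABCC5, which carries cyclic nucleotides and folate analogues, had 56.2 TPM in floating and 60.5 TPM in adherent cells, or 1.06-fold lower in floating cells (interval 1.01 to 1.12). As a result the order of the most abundant drug pumps by TPM differed, with ABCC1 first in floating cells and ABCC5 first in adherent cells. ABCC4, which carries cyclic AMP and prostaglandins, had 20.7 TPM in floating and 18.5 TPM in adherent cells (1.16-fold, interval 1.08 to 1.26). ABCC10, a pump for taxanes, had 8.83 TPM in floating and 8.45 TPM in adherent cells, and its interval of 0.955 to 1.22 included no difference.

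The lipid transporters were on balance lower in floating cells. Their summed reads were 5727 in floating and 6434 in adherent cells, a log2 ratio of -0.22 (interval -0.27 to -0.17), and the median log2 ratio of the 6 compared was -0.36. Intervals lay below no difference for ABCA2, ABCA3, ABCA5 and ABCG1, above it for ABCA7, and on both sides for ABCG4. That is 16.7% above and 66.7% below, against 25.5% and 25.6% of all genes. No lipid transporter passed the 2-fold rule. Leaving out ABCA3 gave a log2 ratio of the summed reads of -0.13 (interval -0.19 to -0.07). The intervals of the summed ratios of lipid transporters and drug pumps did not overlap. These intervals cover counting error alone, not the spread between the members of a group or between cultures.

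ABCA3, the surfactant lipid transporter of alveolar cells, had 1795 reads and 20.8 TPM in floating cells, against 2274 reads and 28.2 TPM in adherent cells. This was 1.31-fold lower than in adherent cells (interval 1.23 to 1.40). ABCA2, a lipid transporter of lysosomes that is known for its level in brain, had 25.6 TPM in floating and 29.2 TPM in adherent cells and was 1.10-fold lower (interval 1.05 to 1.16). These were the most abundant lipid transporters in both libraries.

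ABCA5, another transporter of lysosomes, had 382 reads and 3.42 TPM in floating cells, against 488 reads and 4.70 TPM in adherent cells, and was 1.32-fold lower (interval 1.15 to 1.51). ABCG1, which hands cholesterol to high-density lipoprotein, had 32 reads and 0.86 TPM in floating cells, against 51 reads and 1.46 TPM in adherent cells. Its difference of 1.64-fold lower had a wide interval of 1.04 to 2.65, as the few reads allow. The related ABCG4 had 1.55 TPM in floating and 2.0 TPM in adherent cells, with an interval that included no difference (log2 -0.81 to 0.13). ABCA7, which exports phospholipid and is a risk gene for Alzheimer disease, went the other way, with 7.73 TPM in floating and 7.09 TPM in adherent cells (1.13-fold, interval 1.01 to 1.26).

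The sequences before the starts of ABCG2 and ABCA3 are shown because ABCG2 had the highest ratio of the compared drug pumps and ABCA3 is the lung-related lipid transporter that was lower in floating cells, and because the regulators AHR, ARNT and SP1, described with their values after the members, were measured. They are RefSeq promoters of build GRCh38.p14, from 250 bases before to 50 bases after an annotated start, on the minus strand for both genes. RefSeq lists 5 starts for ABCG2, of which the most downstream and the most upstream are shown, and the gene tables do not tell which of them these cells used. Capitals mark the GC box GGGCGG, which SP1 binds, and the core GCGTG of the xenobiotic response element, which AHR and ARNT bind, on either strand. The first ABCG2 sequence is at chr4:88158590-88158889, the second, farther upstream, at chr4:88231577-88231876, and that of ABCA3 at chr16:2340679-2340978.
ABCG2 downstream start: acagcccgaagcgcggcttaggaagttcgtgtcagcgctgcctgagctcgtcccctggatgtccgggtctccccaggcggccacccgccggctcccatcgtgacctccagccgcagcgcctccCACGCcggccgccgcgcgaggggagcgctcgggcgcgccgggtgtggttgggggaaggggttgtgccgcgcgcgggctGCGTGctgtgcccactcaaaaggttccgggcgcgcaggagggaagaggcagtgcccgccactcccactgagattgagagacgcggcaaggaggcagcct
ABCG2 upstream start: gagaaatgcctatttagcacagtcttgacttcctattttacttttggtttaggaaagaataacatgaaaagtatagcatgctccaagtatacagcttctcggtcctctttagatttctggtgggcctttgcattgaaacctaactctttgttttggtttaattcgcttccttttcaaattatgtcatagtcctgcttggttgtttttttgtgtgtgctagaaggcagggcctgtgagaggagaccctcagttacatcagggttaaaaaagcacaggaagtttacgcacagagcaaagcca
ABCA3: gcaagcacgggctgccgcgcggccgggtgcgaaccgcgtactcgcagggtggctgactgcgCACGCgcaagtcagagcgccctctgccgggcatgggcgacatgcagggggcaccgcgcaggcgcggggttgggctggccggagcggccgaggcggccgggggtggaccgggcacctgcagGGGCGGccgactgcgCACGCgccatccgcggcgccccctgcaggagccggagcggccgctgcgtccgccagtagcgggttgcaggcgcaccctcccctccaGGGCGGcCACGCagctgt

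The downstream ABCG2 sequence has a G and C content of 72.0% with 2 xenobiotic cores and 0 GC boxes, and the upstream one has 40.3% with 0 of either. Of the 3 ABCG2 starts that are not shown, 2 hold 2 GC boxes and 2 cores each (72.3% and 70.0%), and the other holds 0 of either (48.3%). ABCA3 has 78.0%, with 3 cores and 2 GC boxes, none of which overlap. Among all 35116 promoters of this length 36.5% hold the core and 45.0% the GC box, and among the 14189 of genes of at least 1 CPM it is 48.9% and 66.8%. Of the 32 promoters listed for compared ABC genes, 21 hold the core and 22 the GC box. They are counted by start, so a gene with several starts is counted for each. The CCAAT box, TATA box (TATAAA), E-box (CACGTG), AP-1 site (TGANTCA) and antioxidant core (TGANNNNGC) were also counted. Their shares of the 32 were 21.9%, 9.4%, 18.8%, 6.25% and 59.4%. Among promoters of all genes of at least 1 CPM they were 34.4%, 6.03%, 9.18%, 5.03% and 41.9%, in the same order. Entries were found for 35 of the 45 ABC genes, some with more than 1 start. The median G and C content was 68.3% for promoters of compared ABC genes and 48.3% for those of ABC genes under 1 CPM, against 58.7% for all promoters and 65.0% for those of all genes of at least 1 CPM. These matches describe letters in the windows, and whether any of them is bound in these cells was not tested.

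**Figure D3:**
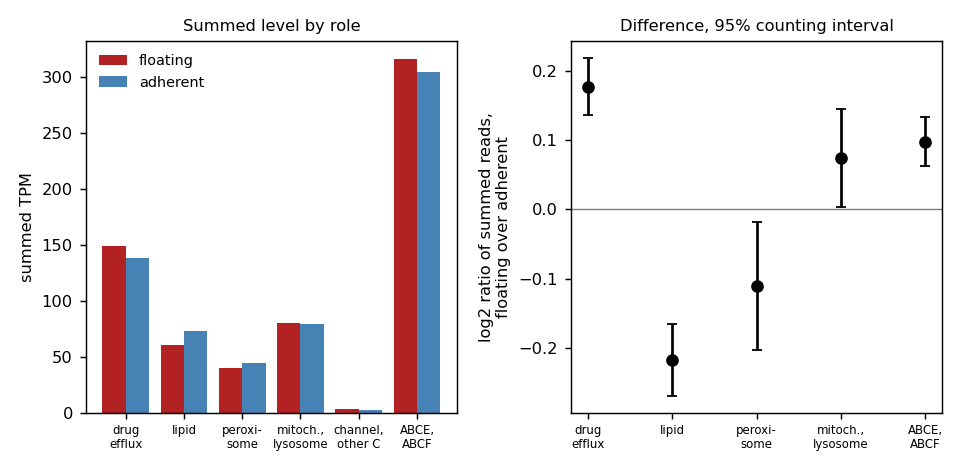
Left, summed TPM of all members by role, with floating cells left of adherent cells in each pair. Right, the log2 ratio of the summed reads with its 95% counting interval, which is 0.18 for drug pumps and -0.22 for lipid transporters. The group of channels and other C members, which is almost all ABCC6, is drawn at left but not at right.

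The remaining members showed no common direction. Of their 14 intervals, 4 lay above and 3 below no difference (28.6% and 21.4%, against 25.5% and 25.6% of all genes). Their median log2 ratio was -0.02, while that of their summed reads was 0.07 (interval 0.04 to 0.10). In the peroxisome group, ABCD2, a carrier of very-long-chain fatty acids, had 150 reads and 2.18 TPM in floating cells, against 192 reads and 2.97 TPM in adherent cells, and was 1.32-fold lower (interval 1.06 to 1.65). ABCD3, the peroxisomal carrier of branched-chain and dicarboxylic acids, had 29.2 TPM in floating and 31.0 TPM in adherent cells, with an interval that included no difference.

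Of the mitochondrial members, ABCB8 had an interval above no difference. ABCB8, which takes part in the export of iron from mitochondria, had 967 reads and 16.1 TPM in floating cells, against 725 reads and 12.9 TPM in adherent cells. It was 1.29-fold higher in floating cells (interval 1.17 to 1.42). ABCB10, needed for heme synthesis, had 20.6 TPM in floating and 21.4 TPM in adherent cells. Its interval included no difference, as did that of the porphyrin carrier ABCB6. In lysosomes, the peptide transporter ABCB9 had 123 reads and 2.89 TPM in floating cells, against 161 reads and 4.05 TPM in adherent cells, and was 1.35-fold lower (interval 1.06 to 1.73). The lysosomal cobalamin exporter ABCD4 had 7.14 TPM in floating and 7.89 TPM in adherent cells, with an interval that included no difference.

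Of the members that act on ribosomes, ABCE1 was 1.10-fold (interval 1.05 to 1.14) and ABCF2 1.12-fold (interval 1.06 to 1.18) higher in floating cells. ABCF3 had 56.2 TPM in floating and 58.6 TPM in adherent cells, and the intervals of ABCF1 and ABCF3 included no difference. Their reads were many and the intervals narrow, while the spread between cultures was not measured.

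ABCC6, a transporter of liver and kidney that releases ATP and is mutated in pseudoxanthoma elasticum, was the other gene past the 2-fold rule. It had 78 reads in floating and 35 reads in adherent cells, a 2.14-fold difference (interval 1.43 to 3.31). On TPM the difference was smaller, with 3.24 TPM in floating and 2.21 TPM in adherent cells, a ratio of 1.47, so ABCC6 missed 2-fold there. The number of reads per TPM of ABCC6 differed 1.42-fold between the libraries relative to other genes, against 0.982 to 1.01 for the other ABC genes where it could be computed, which means that the effective length in the authors' estimate differed between the libraries. Its estimates have decimals, and it shares sequence with the pseudogenes ABCC6P1 and ABCC6P2, which together had 12 reads in floating and 3 reads in adherent cells. Summed over ABCC6 and both pseudogenes there were 90 reads in floating and 38 reads in adherent cells, a 2.27-fold difference (interval 1.55 to 3.44), and 1.44-fold on TPM. The channel subunits ABCC8 and ABCC9, the sulfonylurea receptors, had 1 and 5 reads in floating cells and 2 each in adherent cells.

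**Figure D4:**
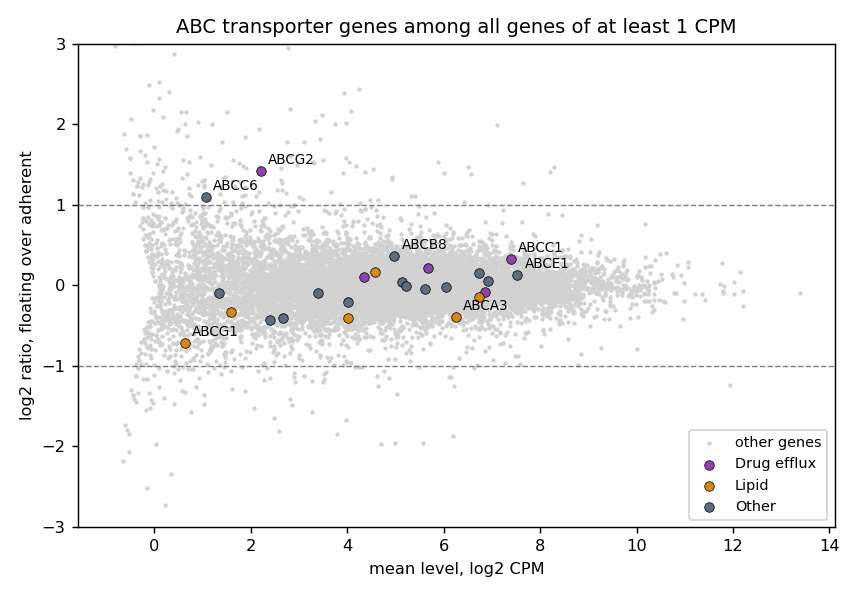
The log2 ratio of floating over adherent cells against mean level (log2 CPM) for all 13131 compared genes (grey, with 11 genes outside the axis range) and the ABC genes (coloured by role). ABCG2 and ABCC6 stand above the dashed 2-fold line among genes of low level, where the grey cloud is also wide, and ABCC1, ABCE1 and ABCA3 lie inside the cloud at high level.

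Genes that share work with the ABC family are described from lists that follow the members' roles. TAP1 and TAP2, the ABC transporters that feed peptides to MHC class I and whose symbols fall outside the rule, had 48.2 and 38.0 TPM in floating and 51.3 and 38.7 TPM in adherent cells, and neither interval excluded no difference. CFTR, the ABC chloride channel, had 2 reads in floating and 0 in adherent cells. Among 12 compared genes of drug uptake and resistance, none passed the 2-fold rule, against 1.28% higher and 0.754% lower of all genes. Of their intervals 4 lay above and 2 below no difference (33.3% and 16.7%, against 25.5% and 25.6% of all genes). The organic anion uptake carrier SLCO1B3 was 1.29-fold higher in floating cells (interval 1.17 to 1.41), and the nucleoside carrier SLC29A2 was 1.18-fold lower (interval 1.11 to 1.24).

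Of 13 compared regulators of drug pumps, EPAS1 passed the 2-fold rule. EPAS1, a hypoxia-inducible factor, had 288 reads and 4.32 TPM in floating cells, against 91 reads and 1.46 TPM in adherent cells, and was 3.05-fold higher (interval 2.41 to 3.92). Of the 13 intervals, 3 lay above no difference, EPAS1 included, and 6 below it (23.1% and 46.2%, against 25.5% and 25.6% of all genes, of which 1.28% passed the 2-fold rule upwards). The median log2 ratio of the 13 was -0.12, while their mean was 0.06. SP1, which binds GC boxes, had 79.9 TPM in floating and 111 TPM in adherent cells, 1.35-fold lower (interval 1.31 to 1.39). The dioxin receptor AHR had 59.1 TPM in floating and 82.5 TPM in adherent cells, and its partner ARNT had 42.5 TPM in floating and 54.3 TPM in adherent cells. YBX1, the most abundant of the list, had 1407 TPM in floating and 1186 TPM in adherent cells (1.22-fold, interval 1.20 to 1.24). The xenobiotic receptors NR1I2 and NR1I3 had 0 reads in both libraries.

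Around the lipid transporters, 9 compared genes of sterol sensing by the liver X receptors (LXR) split, with 3 intervals above and 2 below no difference (33.3% and 22.2%, against 25.5% and 25.6% of all genes) and a median log2 ratio of 0.07. In floating cells SREBF1, the regulator of fatty acid synthesis, stood 1.57-fold lower (interval 1.47 to 1.68). APOC1, the most abundant by mean TPM, had 105 TPM in floating and 102 TPM in adherent cells. The LXR genes NR1H2 and NR1H3 had 51.3 and 7.95 TPM in floating and 48.5 and 6.24 TPM in adherent cells. LXR targets among the ABC genes include ABCA1, at 0 reads in both libraries, and ABCG1, at 0.86 TPM in floating and 1.46 TPM in adherent cells.

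Among the partners of the organelle members no gene passed the 2-fold rule, against 1.28% higher and 0.754% lower of all genes. Of 21 peroxisome genes, 4 intervals lay above and 6 below no difference, or 19.0% and 28.6% against 25.5% and 25.6% of all genes (median log2 ratio -0.04), with the import receptor PEX19 1.15-fold higher and PEX5 1.14-fold lower in floating cells, and HSD17B4 the most abundant at 136 TPM in floating and 147 TPM in adherent cells. Of 20 genes of heme and iron-sulfur assembly, 7 lay above and 1 below, or 35.0% and 5.0% against the same shares of all genes (median 0.09). Their summed reads went the other way, with a log2 ratio of -0.10 (interval -0.12 to -0.07), and CPOX held the most of them. The scaffold ISCU had 158 TPM in floating and 118 TPM in adherent cells (1.38-fold, interval 1.29 to 1.49). CPOX, a heme synthesis enzyme, had 392 TPM in floating and 530 TPM in adherent cells, which is 1.31-fold lower (interval 1.28 to 1.34). Of 8 compared cobalamin genes, 4 lay above and 1 below, against 25.5% and 25.6% of all genes (median 0.10), and that 1 was LMBRD1, the lysosomal partner of ABCD4, at 14.7 TPM in floating and 21.0 TPM in adherent cells (1.39-fold lower, interval 1.22 to 1.59). MMADHC, which hands cobalamin on in the cytosol, had 160 TPM in floating and 143 TPM in adherent cells.

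A list drawn around ABCE1 held 13 compared genes of ribosome recycling, translation quality control and initiation. Of their intervals, 8 lay above and 0 below no difference (median log2 ratio 0.20), against 25.5% and 25.6% of all genes. The list is not confined to recycling, as it includes EIF2S1, EIF2S2, EIF2S3 and the eIF2 kinase EIF2AK4. EIF2S1 and EIF2S2 are among the 8 above no difference. EIF2S2, a subunit of initiation factor eIF2, had 301 TPM in floating and 240 TPM in adherent cells (log2 ratio 0.37, interval 0.33 to 0.42). EIF2S3, the most abundant, had 422 TPM in floating and 444 TPM in adherent cells, with an interval that included no difference. None of the 13 passed the 2-fold rule. KCNJ11, a pore of the channels that ABCC8 and ABCC9 regulate, had 11.1 TPM in floating and 12.6 TPM in adherent cells.

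**Figure D5:**
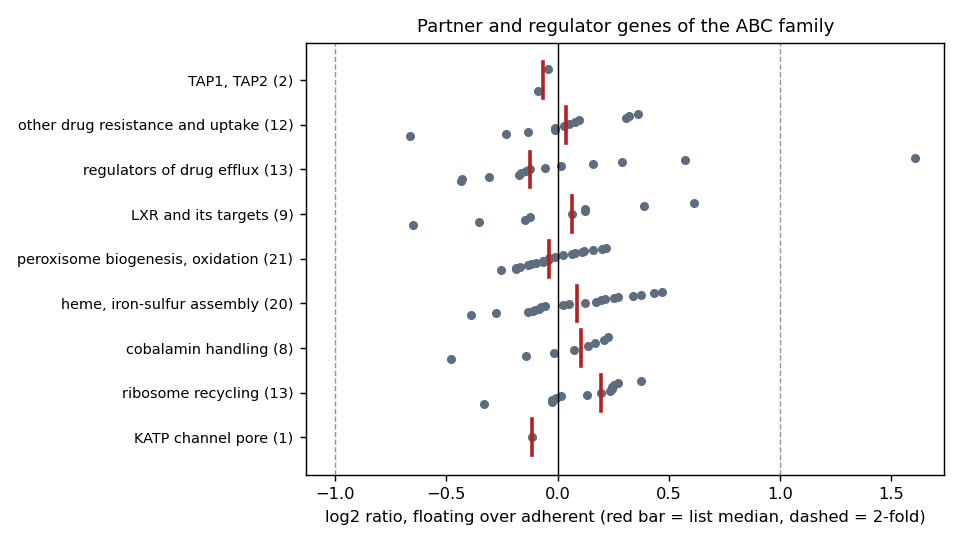
The log2 ratio of floating over adherent cells for each compared gene (grey points) of 9 partner and regulator lists, with the list median in red and the number of compared genes in brackets. EPAS1 is the point past the dashed 2-fold line, and the medians lie between -0.12 and 0.20.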

How the data were processed

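Poly(A)-selected RNA of A427 was made into libraries with a KAPA kit, per the labels' protocols. FastQC 0.11.1, STAR 2.5.3a and RSEM 1.3.3 and the build hg19 are named per the submitters' processing notes; neither annotation nor strand use is given in the sources used here. Expected counts per gene, not normalized, and TPM, scaled to 1000000 per library, were deposited by the authors. Decimals occur in 6.55% of floating and 6.38% of adherent counts, and these were rounded. Libraries were scaled by TMM in edgeR 4.0.16 (R 4.3.3). Log2 ratios of floating over adherent cells used a prior count of 0.5, with an exact Clopper-Pearson interval of 95% given the summed reads. A gene needed 1 CPM in either library to be compared. A count of 0 was given a limit of 3 reads. These intervals and limits speak for the counting of reads alone. As no molecular identifiers were used, copies of a molecule cannot be told from separate molecules, so the intervals may be too narrow. With 1 library per growth form, no test of edgeR or DESeq2 was run. The calculation was tested on simulated Poisson counts without spread between cultures, which cannot show how the intervals hold for real cultures.

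The members and lists were chosen with earlier results of these data known. Roles were assigned by hand from general knowledge. Per-library values were given for compared members with a log2 ratio of at least 0.32 in size and an interval that excludes no difference and for the 2 of highest TPM per role. In each partner list the genes at either end by interval, past 2-fold or of highest TPM were named. Others were chosen after their values were seen, among them AHR, ARNT, PPARG and the LXR genes. A few genes that these rules name are not reported here, though counts, sums and medians include them. Of 116 list genes 114 were matched by symbol. Alternatives were scaling by totals, by the upper quartile or by size factors of DESeq2 1.42.0, log2 of deposited TPM + 0.1, a prior count of 5, other minima and thresholds, and removal of a trend over effective length (reads per TPM) by a lowess curve (statsmodels 0.14.6, fraction 0.3). Python 3.11.15, numpy 2.4.6, scipy 1.17.1 and pandas 2.3.3 were used otherwise.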

Additional observations from a re-analysis of the deposited data

How the results depend on the processing

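No paired analysis was possible because each growth form has 1 library. The number of ABC genes at least 2-fold higher in floating cells was 2, and it was 1 (ABCG2) on deposited TPM, 1 (ABCG2) with a minimum of 5 CPM and 0 with a 4-fold threshold. The number lower was 0, and 1 (ABCG1) with a 1.5-fold threshold. The log2 ratio of summed values on deposited TPM was 0.11 for drug pumps, -0.28 for lipid transporters and 0.029 for other members. With the trend over effective length removed it was 0.23 for drug pumps and -0.16 for lipid transporters. Over all alternatives run, the summed ratio of drug pumps lay between 0.11 and 0.23 and their median between 0.16 and 0.27, while for lipid transporters these were -0.28 to -0.16 and -0.39 to -0.24, so neither group changed direction. The median of other members lay between -0.06 and 0.01. For single genes, ABCC6 missed 2-fold on TPM (0.53), and ABCB10, with an interval that includes no difference, changed sign with the length trend removed (0.024). Of the genes higher at a log2 ratio of at least 0.32 (cut 0.3219), ABCC1 stood just above the cut at 0.3225. It fell under the cut with upper-quartile scaling (0.309) and on deposited TPM (0.277), as did ABCB8 on deposited TPM (0.3199). Some intervals ended so close to 0 that their side depends on the processing. For example, that of ABCA7 began at log2 0.0097, and its ratio moved from 0.170 to 0.157 with upper-quartile scaling. The interval of ABCC5 ended at log2 -0.013, and its ratio moved from -0.085 to -0.036 with the length trend removed. The cause of these shifts was not tested. Depth limits ABCG1, ABCG4, ABCB6 and ABCC6, which had under 100 reads in each library, and the spread between cultures was not measured.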

Other observations

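Several ABC genes are neighbours in the order of protein-coding genes of RefSeq GRCh38.p14, and neighbours were alike in level in some places and not in others. ABCC1 and ABCC6 are adjacent, and both had ratios above 0, but they had 5113 and 78 reads in floating and 3952 and 35 reads in adherent cells. In the run ABCA8, ABCA9, ABCA6, ABCA10 and ABCA5, ABCA5 had 382 reads in floating and 488 reads in adherent cells, while the other members had at most 5 reads in floating and at most 9 reads in adherent cells. Both genes were below 1 CPM in the pairs ABCB4 and ABCB1, ABCG5 and ABCG8, ABCC12 and ABCC11, and KCNJ8 and ABCC9. KCNJ11 lies next to ABCC8, and had 476 reads in floating and 498 reads in adherent cells, against 1 read of ABCC8 in floating and 2 in adherent cells.

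Of the symbols left out, the pseudogene ABCA11P had 263 reads in floating and 226 reads in adherent cells, more than 27 of the 45 genes kept had in floating cells. ABCC13 and the antisense gene ABCC5-AS1 had 0 reads in both libraries.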
